A study of Mus musculus with 3 samples.

Results

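The mouse cytochrome P450 genes were taken as all gene spots of the arrays whose gene name starts with Cyp and a digit, together with Por, the reductase that serves most of these enzymes. This gave 98 genes on 121 probes and 139 spots, out of 31896 named genes on 39429 probes and 43020 gene spots. Every probe of these genes was used, and the rule itself reads gene names only. Changes were judged only for the 46 genes with a probe well above background on all 3 arrays in at least 1 channel, and the other 52 genes were not tested. These 52 include Cyp1a1, Cyp1a2, Cyp26a1, Cyp24a1, Cyp27a1, Cyp27b1, Cyp7a1, Cyp8b1, Cyp11a1, Cyp11b1, Cyp11b2 and Cyp19a1. A probe named Gm9705 in the files is Cyp4f37 by RefSeq. It was not chosen by its name and was not above background.

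The arrays set primary diffuse-type gastric cancers beside normal gastric mucosa in mice aged 12 months. Each of 3 tumours came from an Atp4b-Cre+;Cdh1loxP/loxP;Trp53loxP/loxP mouse, in which Cre from the promoter of a parietal cell proton pump gene can remove the floxed alleles of E-cadherin and p53. The control was a pool of 5 normal gastric mucosae from Atp4b-Cre-;Cdh1loxP/loxP;Trp53loxP/loxP mice, which carry the same floxed alleles without Cre. Stroma had been removed mechanically from the normal mucosae in 30 mM EDTA-2Na, and the labels give no such step for the tumours. Each tumour was labelled with Cy5 and set against the same pool in Cy3, with no dye swap, so the pool is 1 control sample and the test leaves out the spread among normal mice. On bulk tissue, fewer cells of a type and less RNA per cell cannot be told apart.

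Cytochrome P450 enzymes hold a heme group that binds oxygen, and they insert 1 oxygen atom into a substrate with electrons passed on by Por, by cytochrome b5 or by ferredoxin. Families 1 to 3 act mostly on drugs, plant compounds and fatty acids, family 4 oxidises fatty acids and leukotrienes, and the remaining families make or break down sterols, bile acids, steroid hormones, vitamin D and retinoic acid. In the gut, P450 enzymes of the epithelium act on swallowed compounds before these reach the liver, and those of leukocytes and connective tissue act on lipid signals and retinoids.

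Of the sequences printed here, those of the probes bear on how the values can be read. The first set shows the promoters of Cyp2c65 and Cyp2c66, neighbouring genes of the Cyp2c cluster that were both called lower. They run from 250 bases before to 50 bases after the start in RefSeq, on the plus strand of GRCm38.p6, at chr19:39060756-39061055 and chr19:39113648-39113947. Capitals mark the bases that differ between both promoters within their aligned stretch, and the unaligned ends are in lower case.
Cyp2c65 promoter: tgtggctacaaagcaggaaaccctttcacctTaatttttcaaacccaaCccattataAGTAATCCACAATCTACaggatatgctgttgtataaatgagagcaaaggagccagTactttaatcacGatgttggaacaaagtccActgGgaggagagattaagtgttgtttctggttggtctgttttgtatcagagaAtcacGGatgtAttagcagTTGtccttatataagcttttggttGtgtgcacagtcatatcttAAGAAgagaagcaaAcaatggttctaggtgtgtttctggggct
Cyp2c66 promoter: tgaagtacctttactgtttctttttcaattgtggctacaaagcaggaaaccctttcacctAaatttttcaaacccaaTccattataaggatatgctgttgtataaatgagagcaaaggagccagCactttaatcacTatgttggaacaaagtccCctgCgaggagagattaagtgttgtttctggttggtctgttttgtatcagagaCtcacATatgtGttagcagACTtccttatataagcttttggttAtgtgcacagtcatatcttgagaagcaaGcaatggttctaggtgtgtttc
The alignment has 293 columns, of which 256 (87.4%) are identical, 15 are mismatches and 22 are gaps. Whether this likeness bears on the values of both genes was not tested. The next set shows 30 bases of the array probes that stand for Cyp4a10 (chr4:115206200-115206259 of mm9) and Cyp4a31 (chr4:115251553-115251612), both on the plus strand, with the bases that differ in capitals.
Cyp4a10 probe: atcttccctcctttctgcaataaagTtccC
Cyp4a31 probe: atcttccctcctttctgcaataaagGtccA
Over the 47 bases where these 60-base probes overlap, 44 match, so each may take up RNA of the other gene. They are counted here as separate genes, and how far their values are independent was not tested. The third set is 30 bases of the probe that stands for Cyp2u1 (chr3:130996343-130996402, minus strand), which holds 16 copies of GT in a run of 32 bases, in capitals as far as shown.
Cyp2u1 probe: ttgGTGTGTGTGTGTGTGTGTGTGTGTGTG
The last is 30 bases of the probe that stands for Cyp21a1 (chr17:34938298-34938357, minus strand), which lies near the 3′ end of the transcript and holds AATAAA, the letters of a polyadenylation signal, in capitals.
Cyp21a1 probe: cttctgcccagtAATAAAtggtctcttcag
Coordinates of probes are those of mm9 throughout. Whether a probe lies in an exon or an untranslated region was not worked out.

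In the 3 tumours, 13 of 46 tested genes were called lower than in the pool and 6 were called higher. A call needed an adjusted p under 0.05 and a mean difference of at least 2-fold. All 13 genes called lower make 28.3% of those tested, where 9.68% of all 19434 tested genes were called lower. The 6 called higher make 13.0%, where 9.33% of all tested genes were called higher. The median log2 ratio of the tested P450 genes was -0.44, and that of all tested genes was 0.05. On the single arrays, the median of the P450 genes was -0.40 on replicate 1, -0.45 on replicate 2 and -0.34 on replicate 3. Without loess, with each array centred on the median of all its gene spots, the median of all tested genes rose to 0.77. With this setting 7 of the 46 P450 genes were called higher and 9 lower, where 39.9% and 2.86% of all tested genes were. The median of the P450 genes was then 0.01, still below that of all tested genes. At an adjusted p under 0.05 and any fold, 25 P450 genes were lower and 7 higher, where 22.9% and 24.5% of all tested genes were.

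**Figure D1:**
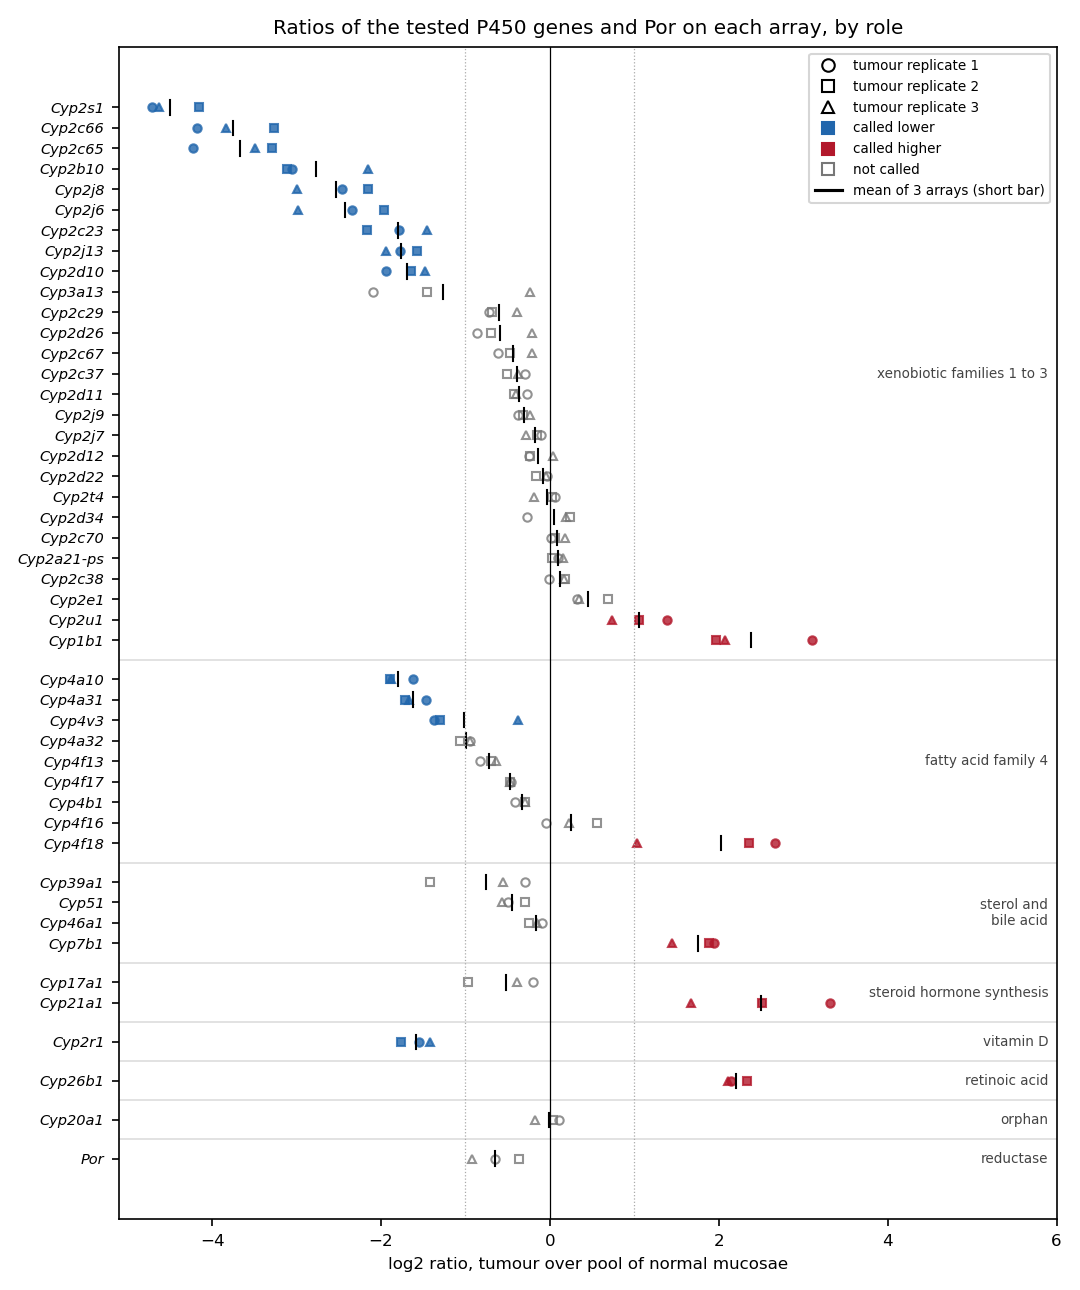
Log2 ratio of tumour over pool (x axis) for each of the 46 tested genes (rows, grouped by role), with 1 symbol for each tumour replicate, a short bar at the mean of 3 arrays and dotted lines at 2-fold. The 13 genes called lower reach from -4.50 (Cyp2s1) to -1.01 (Cyp4v3), and the 6 called higher from 1.06 (Cyp2u1) to 2.50 (Cyp21a1).

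Families 1 to 3 hold 57 genes, of which 27 were tested, 9 fell and 2 rose, with a median log2 ratio of -0.39 over those tested. These make 33.3% lower and 7.41% higher, where 9.68% and 9.33% of all tested genes were called lower and higher. All 9 that fell belong to family 2, and they include 3 genes of Cyp2c and 3 of Cyp2j. Cyp2s1, a P450 of surface epithelia outside the liver, had the lowest mean of all tested members. Its normalised log2 signal (probe at chr7:26587495-26587554) was 15.80, 15.81 and 15.87 in the pool and 11.09, 11.65 and 11.24 in the tumours of replicates 1, 2 and 3. Its log2 ratios were therefore -4.71, -4.16 and -4.63, a mean of -4.50 ± 0.30 (SD, n = 3) or 22.6-fold lower, with an adjusted p of 0.000438. All 3 tumours lay far below the pool, and the tumours differed from each other by much less than that distance.

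Cyp2c65 and Cyp2c66, whose subfamily oxidises arachidonic acid as well as drugs, followed Cyp2s1. Cyp2c65 (chr19:39167981-39168040) had log2 signals of 12.16, 12.16 and 12.01 in the pool and 7.94, 8.86 and 8.51 in the tumours. Its log2 ratios of -4.22, -3.30 and -3.50 have a mean of -3.67 ± 0.49 (SD, n = 3), 12.7-fold lower (adjusted p = 0.000956). Cyp2c66 (chr19:39261183-39261242) had log2 ratios of -4.18, -3.26 and -3.83, with a mean of -3.76 ± 0.46 (SD, n = 3), 13.5-fold lower (adjusted p = 0.000853). For both genes replicate 1 was lowest and replicate 2 highest, and no tumour came near the pool. The accessions that the files give for the Cyp2c66 probe name Cyp2c65 as well, so its value may not be that of a separate gene. The best ungapped match between the probes of both genes is 24 of 51 bases.

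The third Cyp2c gene called lower was Cyp2c23, an arachidonic acid epoxygenase named Cyp2c44 in the files (chr19:44079535-44079594). Its log2 ratios were -1.79, -2.16 and -1.46, a mean of -1.80 ± 0.35 (SD, n = 3), 3.49-fold lower (adjusted p = 0.0024), and it was -0.83 and not called with the centring on all gene spots. Of 13 Cyp2c genes, 8 were tested, and the other 5 of these were not called. Cyp2c29 had a mean log2 ratio of -0.60 (adjusted p = 0.0149), Cyp2c67 of -0.43 (adjusted p = 0.0397) and Cyp2c37 of -0.39 (adjusted p = 0.0293), each under 2-fold. Cyp2c70 at 0.08 and Cyp2c38 at 0.11 differed from the pool by about their spread over arrays, with adjusted p of 0.485 and 0.368. Mean log2 signals of these 5 in the pool were dim, 6.30 (Cyp2c70) to 6.94 (Cyp2c37). Those of the 3 called genes were 9.36 (Cyp2c23) to 12.11 (Cyp2c65). Cyp2c70 was not well above background in the pool on any array, so a fall could not be judged. With an offset of 0, Cyp2c29 and Cyp2c67 were called lower. The Cyp2c67 probe is also given the accessions of Cyp2c40 and Cyp2c68. The distance between the 3 genes that fell and the other 5 was not tested.

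Genes of Cyp2j encode epoxygenases and hydroxylases of arachidonic acid, and 3 of the 5 tested fell, where 9.68% of all tested genes were called lower. Cyp2j8 (chr4:96111331-96111390) had log2 ratios of -2.46, -2.16 and -2.99, a mean of -2.54 ± 0.42 (SD, n = 3), 5.80-fold lower (adjusted p = 0.0015). The other Cyp2j8 probe gave -0.03, -0.12 and -0.07 and was not well above background on any array. Cyp2j6 (chr4:96192532-96192591) had -2.35, -1.96 and -2.99, a mean of -2.43 ± 0.52 (SD, n = 3), 5.39-fold lower (adjusted p = 0.00242). Its other kept probe gave -1.51, -1.50 and -1.44, so both probes of Cyp2j6 were lower on every array. Cyp2j13 had -1.78, -1.57 and -1.94, a mean of -1.76 ± 0.19 (SD, n = 3), 3.40-fold lower (adjusted p = 0.00115). The Cyp2j13 probe is also given accessions of Cyp2j12, it spans 10984 bases of chromosome 4 as listed, and both other Cyp2j13 probes were not well above background on any array. Cyp2j9 (-0.31, adjusted p = 0.0464) and Cyp2j7 (-0.18, adjusted p = 0.173) were not called, and Cyp2j7 was not well above background in the pool on any array. For Cyp2j8 and Cyp2j6 replicate 3 was lowest and replicate 2 highest.

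Cyp2b10, the mouse P450 best known as a target of the nuclear receptor CAR in liver, was the 1 tested gene of 5 in Cyp2b. Its log2 signal (chr7:26711522-26711581) was 9.53, 9.57 and 9.70 in the pool and 6.48, 6.46 and 7.55 in the tumours. The log2 ratios of -3.05, -3.11 and -2.15 have a mean of -2.77 ± 0.54 (SD, n = 3), 6.82-fold lower (adjusted p = 0.00195), and replicate 3 kept the highest level of the 3 tumours. Cyp2d10, of the subfamily that answers to the drug-metabolising CYP2D6 in humans, had log2 ratios of -1.94, -1.64 and -1.48, a mean of -1.69 ± 0.24 (SD, n = 3), 3.22-fold lower (adjusted p = 0.00156), and it was -0.98 and not called with the centring on all gene spots. The other 5 tested genes of Cyp2d were not called, with means of -0.59 for Cyp2d26, -0.37 for Cyp2d11, -0.15 for Cyp2d12, -0.08 for Cyp2d22 and 0.05 for Cyp2d34. The first 2 of these lie past the adjusted p threshold at under 2-fold (0.0379 and 0.032). Cyp2d22 was not well above background in the pool on any array.

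Cyp3a13 was the 1 tested gene of 8 in Cyp3a, the subfamily that oxidises the widest range of drugs in gut and liver. It had log2 ratios of -2.10, -1.46 and -0.23, so replicates 1 and 2 lay below the pool and replicate 3 close to it. With a mean of -1.26 ± 0.95 (SD, n = 3) and an adjusted p of 0.0509 it was not called. Its other kept probe gave -1.36, -1.29 and -0.52, with an adjusted p of 0.0157 when probes were fitted one by one, and Cyp3a13 was called lower without replicate 3 (mean -1.78). Cyp2t4 (-0.03) and the pseudogene Cyp2a21-ps (0.09) had adjusted p of 0.798 and 0.427, and the pseudogene was not well above background in the pool on any array. Cyp2e1, the ethanol-oxidising P450, had log2 ratios of 0.32, 0.69 and 0.35 with no array well above background in the pool. Its mean of 0.45 (adjusted p = 0.0358) stayed under 2-fold, and with an offset of 0 in the background correction it was called higher, at 2.07. The other Cyp2e1 probe, not well above background on any array, had a mean of -0.11.

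Cyp1b1 and Cyp2u1 were the genes of families 1 to 3 called higher. Cyp1b1, a target of the aryl hydrocarbon receptor that oxidises oestrogens and polycyclic hydrocarbons, had log2 signals (chr17:80106547-80106606) of 7.64, 7.57 and 7.55 in the pool and 10.74, 9.54 and 9.62 in the tumours. Its log2 ratios of 3.10, 1.97 and 2.07 have a mean of 2.38 ± 0.63 (SD, n = 3), 5.21-fold higher (adjusted p = 0.00374). Every tumour lay above the pool and replicate 1 lay highest. Neither Cyp1a1 nor Cyp1a2, the best-known targets of that receptor, was tested, since neither was well above background on all arrays in a channel.

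Cyp2u1, a fatty acid hydroxylase, had log2 ratios of 1.38, 1.05 and 0.74, a mean of 1.06 ± 0.32 (SD, n = 3), 2.08-fold higher (adjusted p = 0.00742). The value comes from the probe with the GT run printed above. On the whole array, 51 kept probes hold GT repeated 10 times, and all 51 had a ratio above 0, from 0.19 to 1.36. Their medians on replicates 1, 2 and 3 were 1.29, 1.09 and 0.84, next to 1.38, 1.05 and 0.74 for Cyp2u1. Their median log2 intensity was 13.58, where that of all 24164 kept probes was 8.06. Without replicate 1 the Cyp2u1 call was lost (mean 0.90). The other Cyp2u1 probe, without such a run, gave -0.21, -0.19 and 0.07 and was not well above background on any array in the tumours. The part of the GT run in the Cyp2u1 value was not tested further.

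**Figure D2:**
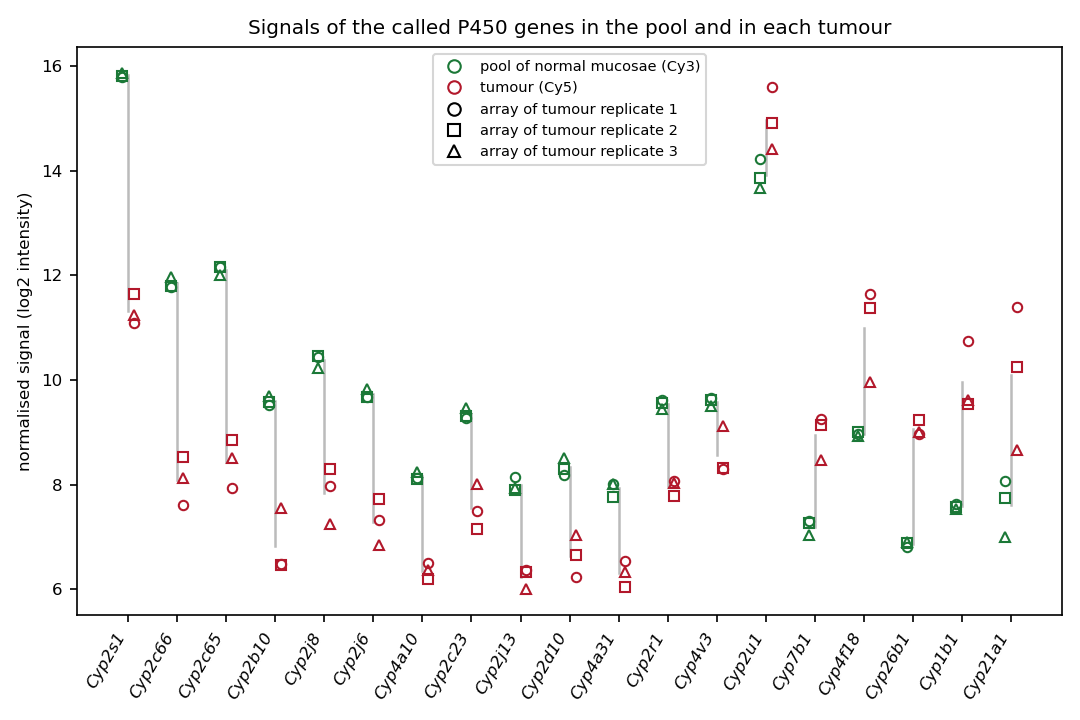
Normalised log2 signal (y axis) of the 19 called genes (x axis, ordered by mean ratio) in the pool (green, Cy3) and in each tumour (red, Cy5), with 1 symbol for each array and a grey line between both means. Levels can be read within a gene but not between genes, since each has its own probe. The tumour points of Cyp21a1 (8.67 to 11.39), Cyp4f18 (9.97 to 11.64) and Cyp1b1 (9.54 to 10.74) lie far apart, and the pool points of Cyp21a1 range from 7.00 to 8.07.

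Family 4 holds 20 genes, of which 9 were tested, 3 fell and 1 rose, with a median log2 ratio of -0.72 over those tested. These make 33.3% lower and 11.1% higher, where 9.68% and 9.33% of all tested genes were called lower and higher. Cyp4a10, a fatty acid omega-hydroxylase that PPAR alpha controls in liver, had log2 ratios of -1.62, -1.90 and -1.89, a mean of -1.80 ± 0.15 (SD, n = 3), 3.49-fold lower (adjusted p = 0.000988). Cyp4a31, with the nearly identical probe shown above, had -1.46, -1.72 and -1.67, a mean of -1.62 ± 0.14 (SD, n = 3), 3.07-fold lower (adjusted p = 0.0011). Both genes were lower in every tumour, with replicate 1 nearest to the pool in each. Another kept probe of Cyp4a10 gave -0.56, -0.48 and -0.45, the same direction but under 2-fold. The other Cyp4a31 probes, with means of -0.27 and 0.04, were not well above background on any array. Cyp4a32 had -0.95, -1.06 and -0.95, and its mean of -0.99 ± 0.06 (SD, n = 3, adjusted p = 0.00242) stopped just short of 2-fold. Its probe matches that of Cyp4a10 at 18 of 58 bases.

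Cyp4v3, the counterpart of a human fatty acid hydroxylase gene of retinal disease, stood just inside the threshold. It had log2 ratios of -1.37, -1.30 and -0.38 (chr8:46391395-46391454), a mean of -1.01 ± 0.55 (SD, n = 3), 2.02-fold lower (adjusted p = 0.0251). Replicate 3 lay near the pool, and the call was lost without replicate 1 (mean -0.84) or without replicate 2 (mean -0.87). Centred on the median of all gene spots, the mean of Cyp4v3 was 0.06. Among the Cyp4f genes, which oxidise leukotrienes and long fatty acids, Cyp4f13 at -0.72 (adjusted p = 0.00593) and Cyp4f17 at -0.47 (adjusted p = 0.014) stayed under 2-fold. Cyp4b1 at -0.33 (adjusted p = 0.0387) did so too, and Cyp4f16 at 0.25 had an adjusted p of 0.222.

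Cyp4f18, which breaks down leukotrienes in mouse leukocytes, rose. Its log2 signal (chr8:74512382-74512441) was 8.97, 9.01 and 8.94 in the pool and 11.64, 11.37 and 9.97 in the tumours. The log2 ratios of 2.67, 2.36 and 1.04 have a mean of 2.02 ± 0.87 (SD, n = 3), 4.06-fold higher (adjusted p = 0.012). Replicate 3 lay closest to the pool. The other kept probe of Cyp4f18, at nearly the same place, gave 2.32, 2.13 and 0.65. Without replicate 2 the Cyp4f18 call was lost (mean 1.85, adjusted p = 0.053).

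Of the 7 sterol and bile acid genes, 4 were tested and 1 rose, where 9.33% of all tested genes were called higher. Cyp7b1, an oxysterol hydroxylase, had log2 signals (chr3:17972286-17972345) of 7.30, 7.26 and 7.03 in the pool and 9.25, 9.14 and 8.48 in the tumours. Its log2 ratios of 1.95, 1.88 and 1.44 have a mean of 1.76 ± 0.27 (SD, n = 3), 3.38-fold higher (adjusted p = 0.00173), with all tumours above the pool. Cyp39a1, another oxysterol hydroxylase, had -0.29, -1.42 and -0.56, a mean of -0.76 ± 0.59 (SD, n = 3, adjusted p = 0.0617) in which replicate 2 stood lowest. Cyp51, the sterol demethylase of cholesterol synthesis, had a mean of -0.45 (adjusted p = 0.0244), and Cyp46a1, the cholesterol hydroxylase of neurons, of -0.17 (adjusted p = 0.194).

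Steroid hormone synthesis is represented by 6 genes, of which Cyp17a1 and Cyp21a1 were tested. Cyp17a1 had a mean of -0.52 ± 0.40 (SD, n = 3, adjusted p = 0.0708). For Cyp17a1 the log2 signal of the same pool was 9.32, 10.59 and 10.56 on replicates 1, 2 and 3, so the arrays themselves differed. Cyp21a1, the steroid hydroxylase of the adrenal cortex, had the highest mean of all tested members. Its log2 signal was 8.07, 7.74 and 7.00 in the pool and 11.39, 10.25 and 8.67 in the tumours. The log2 ratios of 3.32, 2.51 and 1.67 have a mean of 2.50 ± 0.82 (SD, n = 3), 5.65-fold higher (adjusted p = 0.00613), and they are spread widely. This value is that of the 3′-end probe shown above, at base 1858 of the transcript. The other Cyp21a1 probe, at base 399 (chr17:34940497-34940556), was not well above background in either channel on any array and gave 0.22, 0.15 and 0.13. In RefSeq the pseudogene Tnxa overlaps the end of Cyp21a1 and C4a lies next to it, and no probe is named for either. The probe of C4b, a near copy of C4a, had log2 ratios of 3.06, 3.40 and 2.95, and Tnxb, the gene that Tnxa copies, had -0.55, -0.27 and -1.10. The part of neighbouring transcripts in the Cyp21a1 value was not tested.

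**Figure D3:**
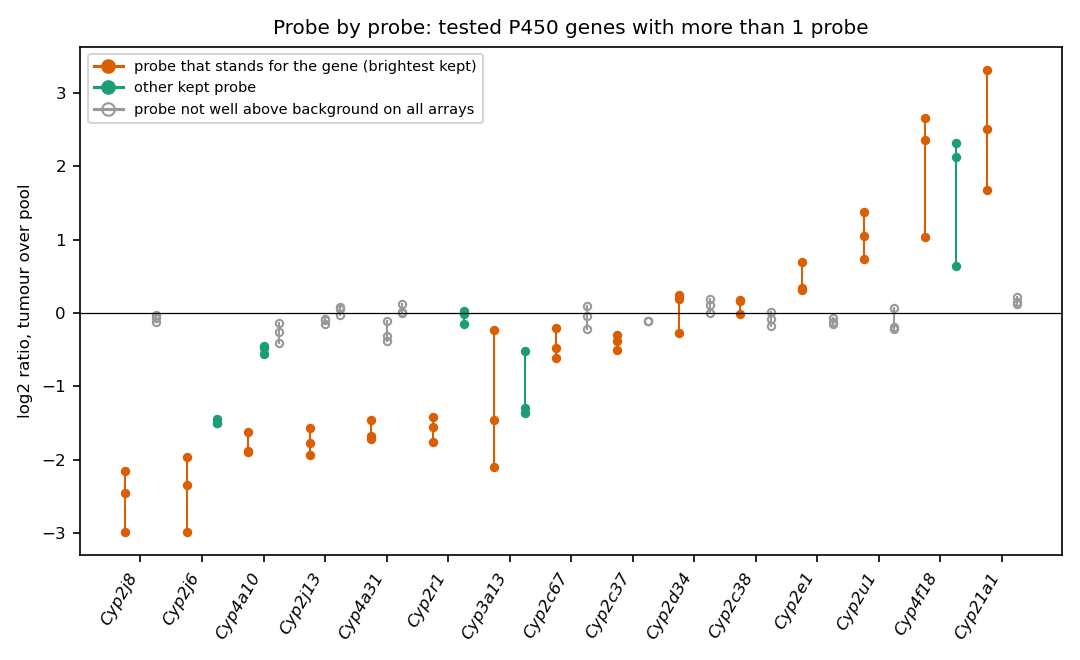
Log2 ratio of tumour over pool (y axis) on each array for every probe of the 15 tested genes with more than 1 probe (x axis): orange, the probe that stands for the gene; green, another kept probe; grey open circles, a probe not well above background on all arrays. Both Cyp4f18 probes and both Cyp2j6 probes lie on the same side of 0. The other kept probe of Cyp2r1 and the dim probes of Cyp21a1, Cyp2u1, Cyp2j8 and Cyp2j13 lie near 0, and the dim probes of Cyp4a31 have means of -0.27 and 0.04.

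The vitamin D and retinoic acid groups each had 1 tested gene of 3. Cyp2r1, the enzyme of the first activating step of vitamin D, had log2 ratios of -1.56, -1.76 and -1.42 (chr7:121693769-121693828), a mean of -1.58 ± 0.17 (SD, n = 3), 2.99-fold lower (adjusted p = 0.00131). Its other kept probe, which passed the background limit in tumours and pool alike, gave 0.03, -0.15 and -0.02. The Cyp2r1 probes thus disagree, and with their median as the value of the gene (-0.81) Cyp2r1 was not called, nor was it with the centring on all gene spots (-0.55). Cyp26b1, which breaks down retinoic acid, had log2 signals (chr6:84521952-84522011) of 8.96, 9.23 and 9.01 in the tumours. In the pool it was not well above background on any array, with log2 signals of 6.82, 6.89 and 6.90. Cyp26b1 was 4.59-fold higher in the tumours by the fit, and the bound for genes dim in 1 channel gave the same fold. No pool signal lay under the level used for that bound (6.08 to 6.12), so 4.59 is not a minimum. Cyp26b1 had log2 ratios of 2.15, 2.34 and 2.11 (mean 2.20 ± 0.12, SD, n = 3, adjusted p = 0.00063). This was the smallest spread between arrays of the 19 called genes.

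Por, the electron donor of the microsomal P450 enzymes, had log2 ratios of -0.65, -0.37 and -0.92 (chr5:136211122-136211181). Its mean of -0.64 ± 0.28 (SD, n = 3), 1.56-fold lower, had an adjusted p of 0.021 and stayed under the 2-fold threshold, and it was 0.69 when arrays were centred on the median of all gene spots. The orphan Cyp20a1 was at -0.01 (adjusted p = 0.94).

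The size of the changes varied from array to array. Each tumour was on 1 array, so differences between tumours and between arrays cannot be told apart. Of the 6 genes called higher, 5 had their largest change in replicate 1 and 5 their smallest in replicate 3, and their median log2 ratios were 2.41, 2.15 and 1.56 on replicates 1, 2 and 3. For the 13 genes called lower the largest change fell on replicates 1, 2 and 3 in 5, 5 and 3 genes, and the medians were -1.94, -1.96 and -1.94. Among the 34 P450 genes that passed the background limit on every array in both colours, the median SD over the 3 arrays was 0.10 for the pool channel and 0.38 for the tumour channel, on the log2 scale. Over all 15569 tested genes that passed this limit, these medians were 0.07 and 0.22.

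Of the genes that serve or steer P450 enzymes, more were called lower than higher in 3 of 4 lists, but in none of these 3 when arrays were centred on the median over their gene spots. The median log2 ratio was -0.30 for redox partners, -0.90 for heme genes, -0.29 for regulators and -0.05 for the other P450-fold and epoxide enzymes, where that of all tested genes was 0.05. The regulators' median was 0.22 without replicate 1 and 0.08 without replicate 2. In the redox partner list, 10 genes were tested, 2 fell and none rose at the 2-fold threshold, where 9.68% and 9.33% of all tested genes were called lower and higher. With the centring on all gene spots 3 redox partners were called higher and none lower. Under that centring 39.9% of all tested genes were called higher and 2.86% lower. The ferredoxin Fdx1, which feeds mitochondrial P450 enzymes, was at -1.51 (adjusted p = 0.00162), and at -0.20 and not called under that centring. Cyb5a, which encodes cytochrome b5, was at -1.03 (adjusted p = 0.00381), but at 0.51 with the centring on all gene spots, and it was not called without replicate 1 (-0.998) or without replicate 2 (-0.96). Among 13 genes of heme synthesis and breakdown, 4 fell and 1 rose, where 9.68% and 9.33% of all tested genes were called lower and higher. With the centring on all gene spots 2 heme genes were called higher and none lower. The synthesis genes Cpox and Alas1 were at -1.78 (adjusted p = 0.00136) and -1.32 (adjusted p = 0.00223), which became -0.67 and 0.07, neither called, under the same centring, and Hmox1, the inducible heme oxygenase, rose to 1.79 (adjusted p = 0.0144). Without replicate 3, Hmox1 was not called (1.84, adjusted p = 0.0732).

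Of 19 tested regulators, 6 fell and 2 rose, where 9.68% and 9.33% of all tested genes were called lower and higher. Nfe2l2, which drives the response to oxidants, was at -1.74 (adjusted p = 0.0017), Nr1i2, the xenobiotic receptor PXR, at -1.55 (adjusted p = 0.014) and the retinoic acid receptor Rara at -1.55 (adjusted p = 0.00179). These 3 kept their sign but lost the call when arrays were centred on the median of all gene spots. With that centring 7 regulators were called higher and 1 lower, where 39.9% and 2.86% of all tested genes were. Without replicate 2, Nr1i2 was not called (-1.60, adjusted p = 0.0517). The receptor gene Ahr was named here after its value was seen because Cyp1b1 is a known target. It had log2 ratios of 1.04, 1.44 and 1.22, a mean of 1.23 (adjusted p = 0.00264). By the median of its kept probes (0.73) Ahr was not called. Nr1i3 and Ppara, which encode CAR and PPAR alpha, the receptors given above for Cyp2b10 and Cyp4a10, were added likewise. Nr1i3 was at 0.66 (adjusted p = 0.0353) and not called, and Ppara was at -1.34 (adjusted p = 0.00135). Of 6 other P450-fold and epoxide enzymes, 2 rose and 2 fell, where 9.33% and 9.68% of all tested genes were called higher and lower. Ptgis, the prostacyclin synthase, was at 3.02 (adjusted p = 0.000856), Tbxas1, the thromboxane synthase, at 1.38 (adjusted p = 0.00808), and Ephx2, which hydrolyses the epoxides that Cyp2c and Cyp2j enzymes make, at -2.76 (adjusted p = 0.000495).

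In RefSeq, promoters were found for 72 of the 98 genes, 32 of the 46 tested and 13 of the 19 called. Short motifs were searched on both strands in these windows of 300 bases, and no motif overlaps another by its letters. A gene among the 32 counts if any of its listed promoters holds the motif, whereas the share over all is per promoter. The counts and shares below are therefore not in the same unit. The core letters of the aryl hydrocarbon receptor element, GCGTG, stood in 11 of the 32 and in 32.4% of all 32817 promoters, and the genes that hold them include Cyp1b1, called higher, and Cyp2b10, Cyp2j13, Cyp2r1 and Cyp4v3, called lower. The nuclear receptor half-sites AGGTCA and AGTTCA each stood in 3 of the 32, and in 16.3% and 14% of all promoters. TATAAA stood in 12 of the 32 and in 13.6% of all promoters. Its holders include Cyp2c65 and Cyp2c66, whose promoters are printed above, Cyp2d10 and Cyp26b1. A match is a run of letters and says nothing of a factor's binding.

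The whole arrays give the setting of these values. Between 52.5% and 54.2% of gene spots were well above background in the pool channel, 64.0% to 66.8% in the tumour channel, and none was saturated. Cdh1 was lower in every tumour (-4.62, -3.27 and -4.83), Trp53 was not called (-0.12, -0.12 and -0.38), and the driver gene Atp4b was at -6.73, -6.77 and -6.99. Where the probes of Cdh1 and Trp53 lie relative to the deleted parts was not worked out.

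Beside the P450 genes that fell, markers of the normal gastric epithelium fell as well. For the marker counts here and below, 9.68% of all tested genes were called lower and 9.33% higher. Of 7 parietal cell markers 6 were called lower, and their summed signal was 3426 to 3992 in the tumours and 380440 to 401674 in the pool, in intensity units. All 5 chief cell markers, all 7 mucous cell markers and 4 of 5 tested endocrine markers were called lower. Of 6 tested intestinal markers, 3 were called lower and 2 higher, with summed signals of 18962 to 22022 in the tumours and 167676 to 183705 in the pool, where Alpi and Cdx2 were not above background. Of 7 tested hepatocyte markers, 2 were called lower and 1 higher, with sums of 1231 to 3539 in the tumours and 20161 to 21929 in the pool, where Fga, Fgb, Serpina3k and Tdo2 were not above background and Alb, Ttr, Ahsg, Apoa1, Apoa2 and Serpina1a were above it on all 3 arrays. Of 5 tested pancreatic acinar markers 3 were called lower, with sums of 6616 to 7502 in the tumours and 691788 to 807300 in the pool. The part of any of these cell types in the P450 values was not tested.

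Beside the P450 genes that rose, many markers of stroma and leukocytes were higher in the tumours. Of 7 fibroblast markers 6 were called higher, with sums of 46772 to 155438 in the tumours and 15811 to 17444 in the pool. Of 6 macrophage markers 5 were called higher (17519 to 18813 against 2948 to 3013), and of 6 neutrophil markers 4 (46290 to 217443 against 11964 to 12750), Ly6g not being above background in the pool. The other lists had 4 of 5 markers called higher for B and plasma cells, 3 of 6 each for T and NK cells, smooth muscle and squamous epithelium, and 2 of 5 for endothelium, with none lower. Of 4 tested adipocyte markers 1 was called higher and 1 lower. In these lists Cd68, Ms4a1, Cd3g, Tek, Adipoq and Plin1 were not above background in the pool either, and among them only Ms4a1 was called higher. The removal of stroma from the pool and the tumour state cannot be told apart here, and the part of these cells in the values of Cyp1b1, Cyp26b1, Cyp7b1 and Cyp4f18 was not tested.

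**Figure D4:**
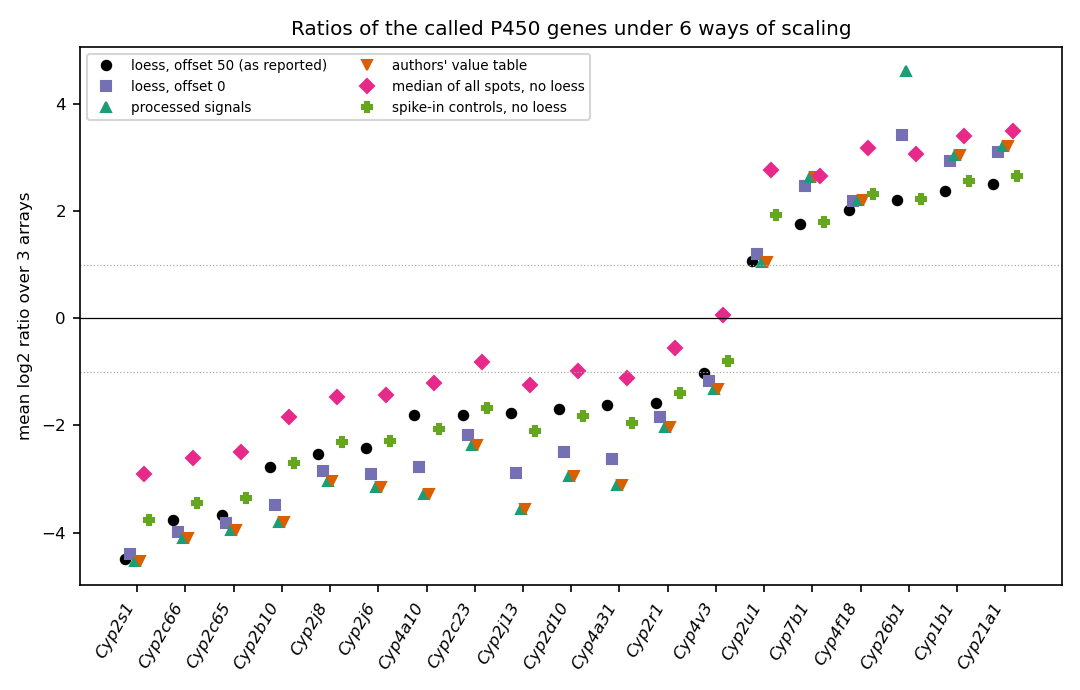
Mean log2 ratio over 3 arrays (y axis) of the 19 called genes (x axis) under 6 ways of correcting and scaling the signals, with dotted lines at 2-fold. The points of 18 genes stay on 1 side of 0 and those of Cyp4v3 do not; Cyp26b1 has no value in the authors' table.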

How the data were processed

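Each array compared 1 tumour (Cy5) with the pool (Cy3), starting with 250 ng of RNA at an integrity number above 7. The 3 arrays shared 1 slide and 1 scan, so no batch could be tested. The scanner files hold deposited intensity values, the mean signal and median local background of each spot, from Agilent Feature Extraction. The file headers name version 10.7.3.1 and the submitters' processing notes 9.5.3. The software's log10 ratio of red over green processed signals is given per the file headers. Log2 ratios of tumour over pool fill the value table that the authors deposited. There 99.8% of filled probes lay within 0.01 of the scanner's ratio on the log2 scale, which fixes scale and direction, with medians of -0.15, -0.13 and -0.11 and no centring. Blank probes make 48.4%, 48.3% and 49.6%, and the reason for them is not given in the sources used here.

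Signals were background-corrected with normexp (offset 50) and loess-normalised within arrays, with no weight on control spots, using limma 3.58.1 and R 4.3.3. Control spots and 157, 167 and 190 outlier spots were left out and spots of a probe averaged. A probe was kept if it was well above background 3 times in red or 3 times in green (24164 probes). The brightest kept probe stood for its gene, which gave 19434 genes. Accessions named 26055 of 39429 probes through a RefSeq table of GRCm38.p6. The offset of 50 pulls ratios of dim genes towards 0, and signals of single channels were made comparable with Aquantile. Bounds for genes dim in 1 channel divide the bright mean by the dim mean, in which a signal under the array's lowest one well above background is raised to it, and are open to dye bias.

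Ratios were tested against 0 by limma (lmFit, eBayes), two-sided. The adjusted p printed are from this fit after Benjamini-Hochberg adjustment across all genes (2.45 prior degrees of freedom). Those given for a probe fitted by itself or with an array left out come from separate fits of that kind. The labels call the tumours biological replicates, so the p-values measure the spread between 3 tumours only, and the number of arrays limits precision. The test was tried on simulated data. The P450 genes, the partner and marker lists, the groups and the named-gene rule were chosen with earlier results of these data known. Every tested P450 gene is named, and up to 3 called genes of each partner list. Ahr, Nr1i3 and Ppara were added to these after their values were seen. Alternatives changed the offset, the signal source, the centring, the filter, the choice of probe, the p threshold and the arrays. Leaving out probes of several genes or with a GT run was chosen after seeing the data. Promoters were aligned with Biopython 1.88.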

Additional observations from a re-analysis of the deposited data

How the results depend on the processing

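Under the 15 alternatives run for the counts (fitting each probe by itself among them), 5 to 7 P450 genes were called higher and 9 to 18 lower, each within 1.5 times the reported 6 and 13. Leaving out 1 array in turn gave 5 to 6 higher and 12 to 15 lower, with medians of -0.44 to -0.38, and the median was -0.38 without replicate 2. The median of the P450 genes was -0.62 with offset 0, -0.75 on processed signals, -1.03 in the authors' table (35 genes), 0.012 centred on all gene spots, -0.84 centred on spike-in controls, -0.088 with no filter (98 genes) and -0.68 for the 34 genes above background in both channels. Leaving out the probes of several genes or with a GT run, chosen after seeing the data, left 42 genes, 5 higher and 11 lower. Centring on all gene spots turned the share of higher genes among all calls from 49.1% to 93.3% and ended the calls of Cyp2c23 (-0.83), Cyp2d10 (-0.98) and Cyp2r1 (-0.55). It reversed Cyp4v3 (0.056), Por (0.69), Cyp17a1 (0.62), Cyp20a1 (0.64), Cyp2a21-ps (-0.14), Cyp2c70 (-0.032), Cyp2d11 (0.62), Cyp2d26 (0.31), Cyp2j9 (0.22), Cyp39a1 (0.38), Cyp46a1 (0.23), Cyp4b1 (0.18), Cyp4f13 (0.27), Cyp4f17 (0.40) and Cyp51 (0.41). Spike-in centring ended the call of Cyp4v3 (-0.79) and reversed Cyp2a21-ps (-0.99), Cyp2c38 (-0.64), Cyp2c70 (-0.88), Cyp2d34 (-0.66) and Cyp2e1 (-0.69). Cyp2d34 was also reversed with offset 0 (-0.011) and on processed signals (-0.42), and ranged from -0.041 to 0.21 as each array was left out. Cyp2t4 was reversed on processed signals (0.35) and ranged from -0.079 to 0.042 without 1 array, and Cyp20a1 from -0.069 to 0.071. Without replicate 1 the call of Cyp2u1 (0.90) was lost, and at an adjusted p under 0.01 those of Cyp4f18 and Cyp4v3. The cause of these changes was not tested. Of the genes not called, Cyp4a32 and Cyp3a13 were called lower under 7 alternatives each, and Cyp2c29 under 4. Dim signal limits the 52 genes not tested and the tested genes that were dim in the pool. No paired analysis was possible because the 3 tumours were each set against the same pool, so no group shares replicate numbers with another.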
